A study of Mus musculus with 5 samples.

Results

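Transitional B-like cells, a set of spleen cells with the counts of immature B cells, were 1234 of the 16271 cells kept from 5 single-cell libraries. They were chosen by measured counts of unique molecular identifiers (UMIs, each standing for 1 captured RNA molecule). Cells were kept from 1000 UMIs and 500 genes upward if mitochondrial UMIs made up no more than 10%. A member also had at least 3 UMIs over Cd79a, Cd79b and Ms4a1, which encode the signalling chains of the B cell receptor and CD20, and at least 2 over Vpreb3 and Cd93. It had at most 1 UMI over the marginal zone genes Cr2, Fcrl5, Dtx1 and Cd9, and none of the T cell genes Cd3d, Cd3e and Cd3g or of Siglech, a gene of plasmacytoid dendritic cells. Levels of these rule genes are therefore descriptions and were not tested. Members were compared with 2471 Vpreb3- and Cd93-negative B cells, which met the same conditions but held 0 UMIs of that pair, and with 821 marginal zone-gated B cells, which held 0 UMIs of the pair and at least 4 of the 4 marginal zone genes.

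Transitional B cells are the youngest B cells of the spleen. They arrive from the bone marrow with a surface IgM receptor, pass a check against self-reactivity, depend on the survival factor BAFF and mature into follicular or marginal zone B cells. The receptor CD93 and the glycoprotein CD24 are high at this stage, whereas IgD, the low-affinity IgE receptor CD23 (Fcer2a) and full antigen presentation on MHC class II are gained on the way to the follicular cell.

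The 5 libraries, 1 for each infusion, were made from spleens that C57/BL6 mice gave 48 h after cells or saline had entered a vein. The groups were saline alone, live splenic cells from allogeneic Balbc donors, live splenic cells from isogeneic B6 donors, apoptotic splenic cells from Balbc donors and apoptotic splenic cells from B6 donors. Digestion used collagenase D with DNAse I. CD45+ cells and dendritic cells were then enriched on magnets in parallel and joined in equal parts before 10x 3′ v3.1 sequencing, so shares of cells include that enrichment. The sources used here do not say how many mice stood behind a library. Infused and host cells were not told apart. Every list of 5 values starts with saline, then gives the live infusions and then the apoptotic ones, with the allogeneic before the isogeneic library each time.

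The libraries held 12742889 to 32641733 UMIs, and members had medians of 2194, 3381, 2925, 2708 and 1696 UMIs against 2050.5, 3373, 2697, 2604 and 1637 in the Vpreb3- and Cd93-negative B cells. Member numbers were 174, 81, 273, 137 and 569, so the live allogeneic library gave the least precise levels. Among kept cells 33 barcodes occurred in more than 1 library, and 1 of them was shared among members.

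Vpreb3, which encodes a chain that binds the receptor in immature B cells (chr10:75943057-75949657, mm10), supplied most of the choice: it held 92.3%, 94.9%, 95.4%, 89.9% and 96.5% of the Vpreb3 and Cd93 UMIs of members. Its level in members was 1205, 841, 1063, 906 and 1347 CPM (counts scaled to a total of 1000000 UMIs). Cd93 (chr2:148436640-148443563) was sparse, at 100, 45.1, 51.3, 102 and 48.2 CPM. Of the 1234 members, 1079 held no Cd93 UMI, 15 held no Vpreb3 UMI and 140 held both. Membership stood on exactly 2 UMIs in 543 cells and on 5 or more in 278. T cells should lack both genes. Of 2140 T cells, with library medians of 2670 to 5772 UMIs, 0.187% held a Vpreb3 UMI, 0.607% held a Cd93 UMI and 8 cells held 2 or more over the pair.

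The other genes that marked these cells, which had been picked with earlier results of these data known, were high in members of every library. Ly6d, a surface protein gene of the early B lineage (chr15:74762056-74763620), stood at 3127, 2118, 2087, 2408 and 2772 CPM in members against 1608, 1090, 1130, 1246 and 1694 in the Vpreb3- and Cd93-negative cells. Spib, an Ets-family transcription factor gene of B cells (chr7:44525993-44532071), stood at 423, 234, 351, 294 and 344 CPM against 173, 86.6, 182, 157 and 182. Neither gene overlapped between the classes. Chst3, which encodes a chondroitin sulfotransferase (chr10:60181532-60219260), stood at 206, 192, 270, 145 and 141 CPM against 125, 94.8, 209, 90.3 and 107, higher in members within each library but overlapping across them.

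**Figure D1:**
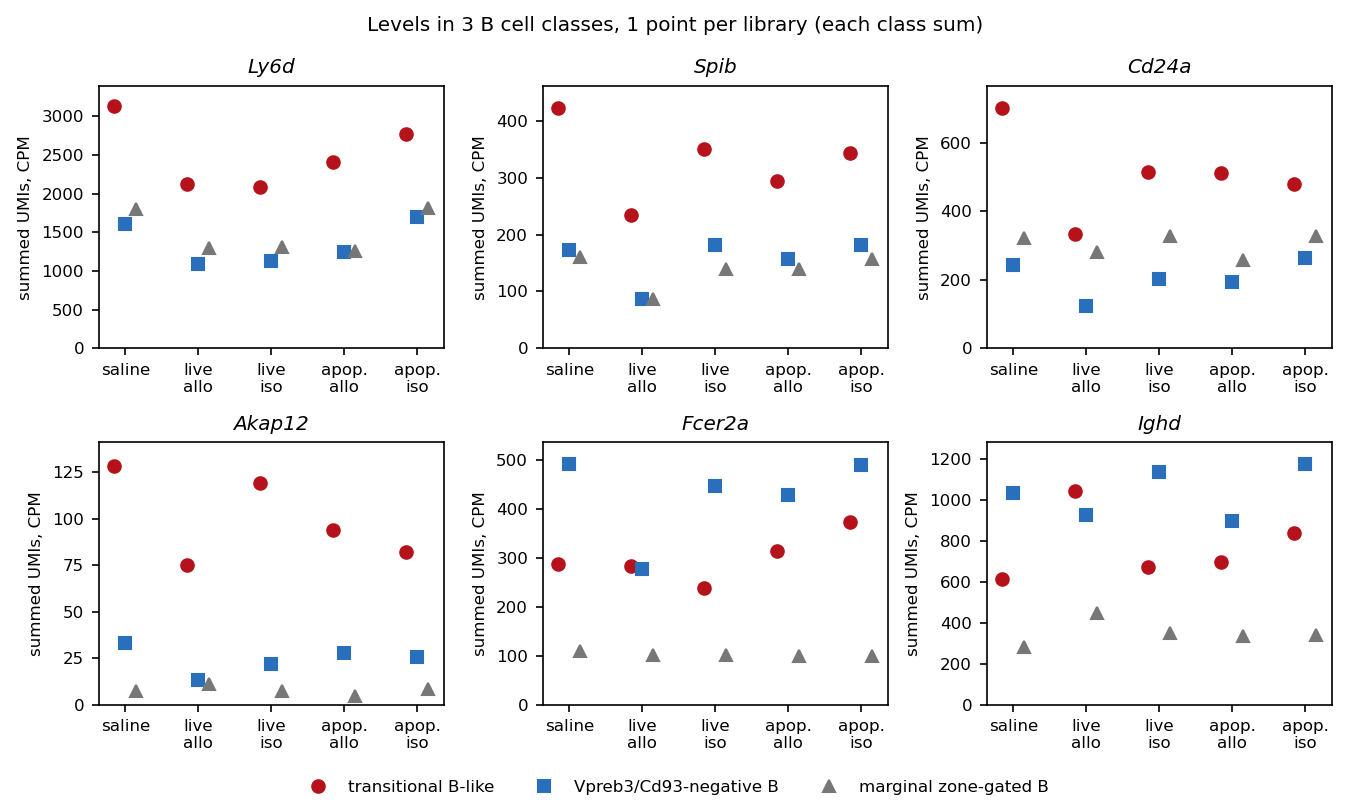
Levels of 6 genes in CPM (linear axes from 0) in transitional B-like cells, Vpreb3- and Cd93-negative B cells and marginal zone-gated B cells, 1 point for each of the 5 libraries. Ly6d, Spib, Cd24a and Akap12 are highest in members of every library; Fcer2a and Ighd are lower in members than in negative B cells in 4 of 5 libraries.

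Cells just inside and just outside the threshold differed by degree. In the saline library Ly6d stood at 2616 CPM in cells with 2 UMIs of the pair, 2165 in cells with 1 and 1608 in cells with 0, and Cd24a at 480, 270 and 242. Ighd went the other way, at 787, 964 and 1035 CPM. The apoptotic isogeneic library had the same order for Ly6d (2389, 2095 and 1694 CPM) and Cd24a (432, 305 and 264). In the live allogeneic library Ly6d (1616, 1402 and 1090 CPM) and Cd24a (265, 191 and 123) kept it too. Ighd had no such order there (1101, 797 and 925 CPM) and ran the other way in the apoptotic allogeneic library (1078, 1011 and 897).

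Some members carried RNA of other cell types. Jchain, the joining chain of secreted antibody and a plasma cell marker, passed 2 UMIs in 6, 1, 9, 6 and 10 members, 32 in all. A further marker group of monocytes, macrophages and dendritic cells passed 2 UMIs in 39 members, and either sign was present in 53 of 1234. Antibody RNA was concentrated in few members: the 5 richest in Ighm contributed 71.7%, 15.9%, 71.1%, 82.0% and 51.9% of all member Ighm UMIs. Summed plasma cell markers in members ranged over libraries from 2646 to 9879 CPM, and from 173 to 273 CPM without the 53 cells. Summed myeloid and dendritic cell markers ranged from 288 to 1122 CPM and from 244 to 435 CPM without them. Jchain and the myeloid markers other than Cst3 also set which cells were left out, so these falls follow in part from that choice. The classes used for comparison held such RNA too. In negative B cells plasma cell markers ranged from 1024 to 6058 CPM, and myeloid and dendritic cell markers from 749 to 2683. In marginal zone-gated B cells they ranged from 135 to 214 and from 1405 to 4698 CPM. In members natural killer markers stood at 8.16 CPM or under, T cell markers at 24.1 to 30.05 and erythroid markers at 12.2 to 173, and Klra8, Eomes and Klre1 were at 0. The class comparisons are therefore given for all cells and again without every cell of either sign, a choice made after seeing the data. No doublet caller was run.

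Genes of bone marrow stages were nearly absent. UMIs of Rag1, Rag2, Dntt, Igll1 or Vpreb1, which encode the recombination enzymes and the surrogate light chain of precursor B cells, were found in 2, 0, 5, 2 and 6 members. The 0 of 81 in the live allogeneic library allows a share of up to 3.70% of cells with such a UMI (3 counts of the total, for counting error only), and sets no limit on cells that hold the RNA unseen. In the live isogeneic library 5 cells held 51 such UMIs, among them 15 of Rag1, 16 of Igll1 and 17 of Vpreb1, and 2 of these cells also held UMIs of the division genes Mki67 or Top2a.

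Against Vpreb3- and Cd93-negative B cells, members had more RNA of the early B cell genes Akap12 and Cd24a and less RNA of 9 of 12 mature follicular and 12 of 14 MHC class II genes. The comparison used UMI sums per class and library, with the library as a block, over 7309 genes. In edgeR's quasi-likelihood test, 208 genes (2.85%) were higher and 299 (4.09%) lower at an adjusted p under 0.05. Without the cells with plasma or myeloid markers, 269 of 6750 genes (3.99%) were higher and 282 (4.18%) lower, and 173 higher and 218 lower genes were called in both fits. The median log2 difference over all genes tested was -0.005. The 5 libraries, each from a different infusion, served as the replicates, so these p-values concern a mean difference over unlike treatments. A call does not mean that every library went the same way.

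Akap12, which encodes a scaffold protein for kinases (chr10:4266380-4359470), did not overlap between the classes. It stood at 128, 75.1, 119, 93.9 and 82.3 CPM in members and at 33.1, 13.1, 21.9, 27.8 and 25.5 in negative cells, so the lowest member value was more than the highest negative value. Its log2 difference was 1.96 (SE 0.16, adjusted p = 6.9e-08), and 2.00 without the marker-bearing cells. Cd24a, the gene of the heat-stable antigen CD24 (chr10:43578284-43584265), stood at 700, 334, 514, 510 and 479 CPM against 242, 123, 201, 193 and 264, also without overlap. Its log2 difference was 1.24 (SE 0.11, adjusted p = 3.2e-07) and 1.27 without those cells. Serinc5, a membrane lipid transporter gene, stood at 62.1, 45.1, 74.6, 55.1 and 45.8 CPM against 15.5, 6.54, 15.7, 11.1 and 11. The difference was 2.15 on the log2 scale (SE 0.21, adjusted p = 7.8e-07) and 2.33 without those cells.

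Other genes near the top were Fam129c (log2 1.85), Coq7, a ubiquinone synthesis gene (1.83), Atp1b1, a sodium pump subunit gene (1.42), Hivep3, a zinc finger gene (1.36), Chchd10, a mitochondrial protein gene (1.34), the kinase gene Sik1 (1.33), Lynx1 (1.22) and the cell cycle factor gene E2f2 (1.22). A further 4 genes of the same ranking, Ly6k (log2 2.22), Prg2 (1.78), Iglc2 (1.54) and Jchain (1.23), changed with the cells kept. Without those cells Ly6k had a log2 difference of 0.94 (adjusted p = 0.088), Iglc2 one of 0.34 (adjusted p = 3.3e-05), and Prg2 and Jchain were too rare to test. For Jchain this follows from its use in choosing the cells left out. Jchain also lost its call without the saline library (0.93, adjusted p = 0.17), and DESeq2 called neither Jchain nor Prg2 (adjusted p = 0.92 and 0.23).

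At the other end stood Tbc1d4, which encodes a regulator of vesicle traffic. It was at 2.0, 3.0, 7.5, 6.1 and 6.2 CPM in members and 75.1, 37.6, 73.9, 143.1 and 31.4 CPM in negative cells, with no overlap and a log2 difference of -3.54 (SE 0.33, adjusted p = 3.8e-07). The calcium-binding protein genes S100a4 (log2 -2.13) and S100a6 (-1.72), the cyclin gene Ccnd1 (-2.12), the lipase-like gene Plbd1 (-1.94), the signalling adaptor gene Traf1 (-1.84), the survival genes Bcl2a1d (-1.66) and Bcl2a1b (-1.03), the early response factor gene Egr3 (-1.15), Apoe (-1.16) and Ahnak (-0.98) were lower in all 5 libraries, and each was called lower in both fits. S100a4 and S100a6 are also expressed by memory and B-1 cells, and Ahnak stood with S100a6 on the B-1 list, of which 2 of 3 tested genes were lower, both named here. Another 4 genes lost their call without the marker-bearing cells or could not be tested. Dnase1l3 went from -1.54 to -0.66 (adjusted p = 0.18), Nabp1 from -1.05 to -0.47 (adjusted p = 0.19) and Ppt1 from -0.98 to -0.44 (adjusted p = 0.073), while Cxcl9 (-4.84 in all cells) was not tested. Among the genes called in both fits, S100a4 lost its call without the saline library (-1.81, adjusted p = 0.096) or the apoptotic allogeneic one (-1.94, adjusted p = 0.061), and Apoe without the apoptotic allogeneic (-1.08, adjusted p = 0.079) or apoptotic isogeneic library (-0.91, adjusted p = 0.16). DESeq2 called neither S100a4 nor Apoe (adjusted p = 0.072 and 0.26), and Apoe was not called with at least 3 UMIs of Vpreb3 and Cd93 (adjusted p = 0.064).

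**Figure D2:**
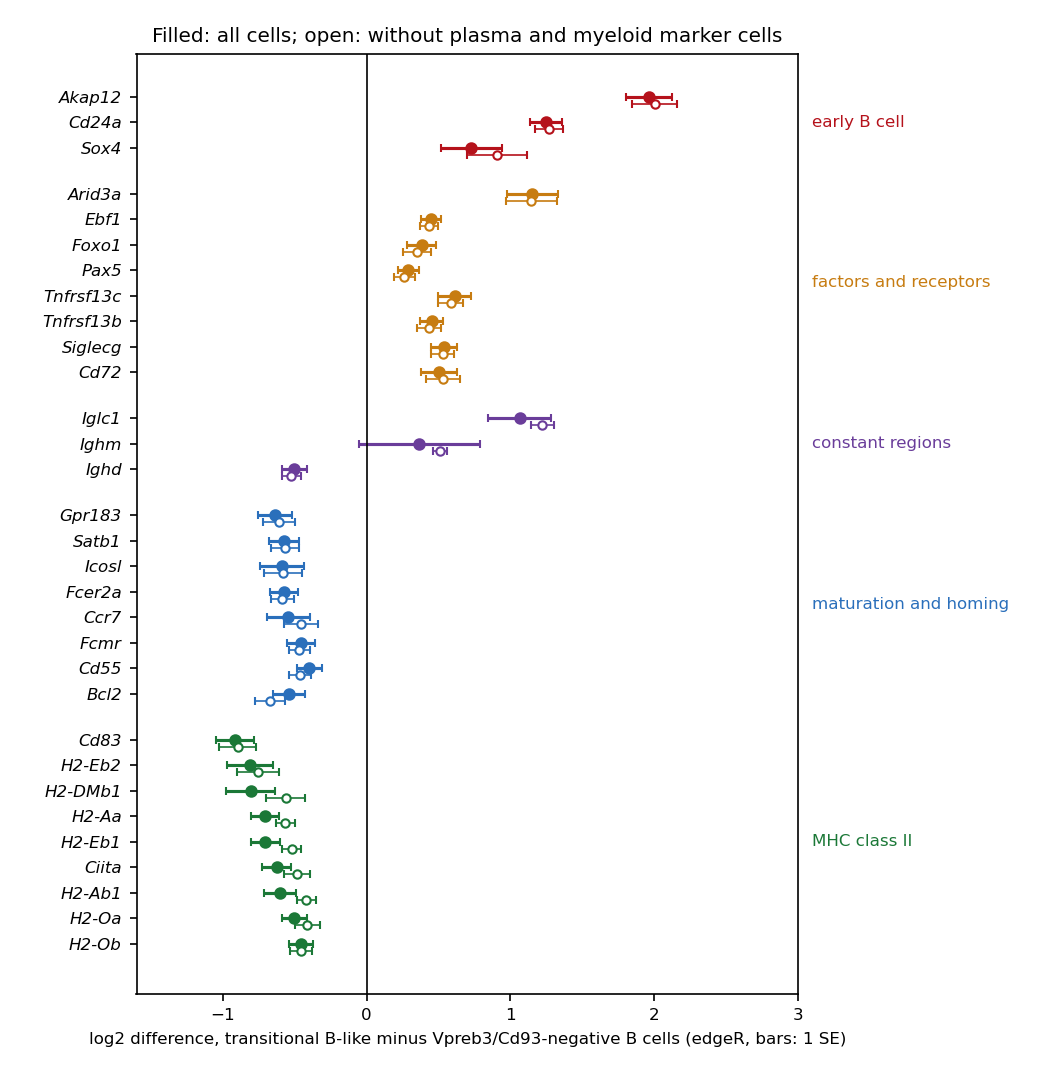
Log2 difference in level, transitional B-like cells minus Vpreb3- and Cd93-negative B cells, with the standard error as a bar; filled points use all cells and open points leave out cells with plasma or myeloid markers. Akap12 stands at 1.96 and Cd24a at 1.24 on the higher side, H2-Aa at -0.70 and Ighd at -0.50 on the lower side.

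The mature follicular list was lower as a group: 9 of its 12 tested genes were lower, 1 was higher and the median log2 difference was -0.52, with the same counts without the marker-bearing cells. Ighd, the IgD constant region (chr12:113406604-113416324), stood at 613, 1043, 674, 698 and 837 CPM against 1035, 925, 1135, 897 and 1176, lower in 4 libraries and slightly higher in the live allogeneic one (log2 -0.50, adjusted p = 0.00072).

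Fcer2a, the CD23 gene, followed the same course at 287, 283, 238, 314 and 374 CPM against 491, 278, 447, 428 and 490 (log2 -0.57, adjusted p = 0.00037). Other lower genes were Gpr183, an oxysterol receptor that guides B cells in the follicle (log2 -0.64), the chromatin organiser Satb1 (-0.57), the chemokine receptor Ccr7 (-0.54), the costimulatory ligand Icosl (-0.59), the IgM receptor Fcmr (-0.46) and the complement regulator Cd55 (-0.40). Ccr7 lost its call when cells were matched by UMI total (adjusted p = 0.067). It also lost it without the saline, apoptotic allogeneic or apoptotic isogeneic library (adjusted p = 0.077, 0.11 and 0.089), as did Icosl without saline, live isogeneic or apoptotic allogeneic (adjusted p = 0.069, 0.18 and 0.080) and Cd55 without saline (-0.32, adjusted p = 0.061). DESeq2 gave Ccr7 an adjusted p of 0.0501. The exception was Tnfrsf13c, the BAFF receptor gene, at 421, 276, 318, 394 and 339 CPM in members against 241, 160, 242, 200 and 244, with no overlap between the classes (log2 0.61, adjusted p = 0.0012).

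MHC class II presentation was lower nearly throughout. Of 14 tested genes 12 were lower and none higher, with a median log2 difference of -0.56, and 11 of 14 were lower without the marker-bearing cells (median -0.47). Some dendritic cell markers moved with it, since 4 of the 8 tested myeloid and dendritic cell markers were lower in members and only 1 could be tested, without a call, once those cells were left out. Most of these markers had themselves been used to choose the cells left out. H2-Aa, a class II α chain gene (chr17:34282744-34287823), stood at 2108, 3272, 1989, 2061 and 3132 CPM in members against 4468, 3597, 3456, 4023 and 4025 in negative cells, with all member values under all negative ones (log2 -0.70, SE 0.10, adjusted p = 5.9e-05, and -0.56 without the marker-bearing cells). H2-Eb1, a β chain gene (chr17:34305867-34316674), stood at 1221, 2194, 1341, 1271 and 1640 CPM against 2563, 2311, 2327, 2512 and 2192, where the live allogeneic member value just reached the lowest negative value (log2 -0.70, adjusted p = 9.8e-05). Ciita, the class II transactivator gene (chr16:10480059-10528418), stood at 223, 222, 203, 167 and 217 CPM against 414, 276, 303, 256 and 303 without overlap (log2 -0.62, adjusted p = 0.00026).

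H2-Ab1 (log2 -0.60), the class II chain gene H2-Eb2 (-0.81), the peptide editor genes H2-DMb1 (-0.81), H2-Oa (-0.50) and H2-Ob (-0.46), and March1 (-0.52) and Cd83 (-0.91), which set the turnover of class II at the surface in opposite directions, were also lower in both fits. H2-DMa (-0.31) and the invariant chain gene Cd74 (-0.25) lost their calls without the marker-bearing cells, at -0.22 (adjusted p = 0.063) and -0.13 (adjusted p = 0.074). H2-DMa was also not called without saline (-0.23, adjusted p = 0.15) or live isogeneic (-0.27, adjusted p = 0.097), nor Cd74 without live isogeneic (-0.22, adjusted p = 0.054).

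Class II promoters share short motifs that an assembly of factors brings under CIITA control, among them the Y box with the core CTGATTGG. The promoters of H2-Aa and H2-Eb1, the genes shown above, are given for reference as the 250 bases before and 50 bases after the start in RefSeq (GRCm38.p6), at chr17:34287774-34288073 on the minus strand and chr17:34305617-34305916 on the plus strand, with that core in capitals.
H2-Aa: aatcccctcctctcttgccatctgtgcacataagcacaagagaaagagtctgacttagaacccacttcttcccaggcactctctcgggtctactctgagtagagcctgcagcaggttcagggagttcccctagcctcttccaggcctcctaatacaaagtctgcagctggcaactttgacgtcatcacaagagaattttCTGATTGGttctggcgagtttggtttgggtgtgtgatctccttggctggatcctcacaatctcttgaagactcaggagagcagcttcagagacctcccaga
H2-Eb1: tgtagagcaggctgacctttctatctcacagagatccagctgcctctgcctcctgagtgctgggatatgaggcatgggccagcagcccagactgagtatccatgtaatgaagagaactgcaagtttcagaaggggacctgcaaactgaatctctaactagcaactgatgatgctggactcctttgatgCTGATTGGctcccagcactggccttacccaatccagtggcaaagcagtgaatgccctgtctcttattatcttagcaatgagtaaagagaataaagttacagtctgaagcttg
The core began 51 bases before the start in H2-Aa and 62 in H2-Eb1. Searched on both strands (the other strand reads CCAATCAG), it lay in 4 of the 9 class II list genes with an entry, namely H2-Aa, H2-Eb1, H2-Eb2 and H2-Oa, and in 1346 of 32851 promoters of that table (4.1%). These matches are letters in a window and not measured binding.

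Among genes that tune the B cell receptor signal, 3 of 29 tested were higher and 1 lower. Siglecg (log2 0.54), Cd72 (0.50) and Ptpn6 (0.30), which encode inhibitory receptors and the phosphatase SHP-1, were higher, and Nfatc1, a calcium-driven transcription factor gene, was lower in all 5 libraries (-0.76, adjusted p = 0.0012). Of 22 tested BAFF receptor and BCL2 family genes, 3 were higher, Tnfrsf13c, the TACI gene Tnfrsf13b (0.45) and the survival gene Mcl1 (0.33), and 7 were lower. Bcl2, the survival gene of mature B cells, stood at 88.2, 117, 92.3, 137 and 146 CPM against 195, 129, 144, 158 and 186, lower in each library but overlapping across them (log2 -0.54, adjusted p = 0.0029). The NF-κB subunit gene Relb (-0.80), the survival genes Bcl2a1a (-2.80), Bcl2a1b and Bcl2a1d, and the death-promoting genes Bcl2l11 (-0.73) and Pmaip1 (-1.29) completed the 7. Without the marker-bearing cells 4 of 19 were lower, Bcl2l11 was not called (adjusted p = 0.090), and Bcl2a1a and Pmaip1 were not tested. With 1 library left out, Cd72 was not called without saline (0.40, adjusted p = 0.12) or live isogeneic (0.36, adjusted p = 0.18), Ptpn6 without any library but the live allogeneic one (adjusted p = 0.28, 0.071, 0.097 and 0.064 in library order), and Relb without apoptotic allogeneic (-0.64, adjusted p = 0.056). Bcl2l11 was not called without saline or either apoptotic library (adjusted p = 0.085, 0.12 and 0.088), nor Pmaip1 without saline, live isogeneic or apoptotic allogeneic (adjusted p = 0.11, 0.086 and 0.096).

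Of 31 tested B lineage transcription factor genes, 7 were higher and 4 lower, and Spib was among the 7. Ebf1 (log2 0.45) and Pax5 (0.29), which hold B cell identity, Foxo1 (0.38), which acts in precursor and transitional cells, and Arid3a, an antibody gene regulator (1.15), were higher. Sox4, a progenitor-stage factor gene, stood at 80.2, 21.0, 62.5, 40.8 and 45.8 CPM against 25.4, 11.4, 34.9, 27.8 and 36.9 and was higher in each library (log2 0.73, adjusted p = 0.036). Notch2, which drives the marginal zone fate (-0.54), Mef2c (-0.25) and Satb1 were lower, although Notch2 lost its call when cells were matched by UMI total (-0.29, adjusted p = 0.38). Pou2af1 (0.29) and Id2 (-1.57), the remaining calls, were not called without the marker-bearing cells (adjusted p = 0.66 and 0.48). In the progenitor list 3 of 6 tested genes were higher, Akap12, Cd24a and Sox4, and Flt3, a receptor gene also used by dendritic cells, was lower (-1.50) and not tested without the marker-bearing cells. Several of these calls needed a given library. Sox4 was not called without saline, live isogeneic or apoptotic allogeneic (0.53, 0.70 and 0.76, adjusted p = 0.25, 0.13 and 0.083), nor Foxo1 without saline, live isogeneic or apoptotic isogeneic (adjusted p = 0.073, 0.079 and 0.12), nor Mef2c without the same 3 (adjusted p = 0.21, 0.090 and 0.074). Pax5 was not called without live isogeneic or apoptotic allogeneic (adjusted p = 0.057 and 0.095), nor Notch2 without saline or live isogeneic (adjusted p = 0.077 and 0.068), nor Id2 without saline or apoptotic allogeneic (adjusted p = 0.056 and 0.090), nor Flt3 without apoptotic allogeneic (-1.30, adjusted p = 0.077). Pou2af1 was not called without any library but the live allogeneic one (adjusted p = 0.29, 0.25, 0.076 and 0.12 in library order). DESeq2 did not call Sox4, Foxo1, Notch2, Id2, Pou2af1 or Flt3 (adjusted p from 0.052 to 0.19).

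Homing genes were lower or not called in all cells: 6 of 25 were lower and none higher. Without the marker-bearing cells 8 of 25 were lower and 1 higher, and in matched cells 4 of 23 were lower and none higher. Among the 6 were Ccr7, Gpr183, the retention receptor Cd69 (log2 -0.58), the integrin gene Itgb7 (-0.73) and the lysophosphatidylserine receptor gene Gpr174 (-0.66), the last of which lost its call in matched cells (adjusted p = 0.091). Gpr174 was also not called without live isogeneic (-0.40, adjusted p = 0.20), nor Itgb7 without saline or live isogeneic (-0.60 and -0.55, adjusted p = 0.087 and 0.16). DESeq2 called neither (adjusted p = 0.063 and 0.066). In the Toll-like receptor list 2 of 11 genes were higher, Cd180 (0.33) and the endosomal chaperone gene Unc93b1 (0.34). Cd180 was not called without live isogeneic or apoptotic allogeneic (adjusted p = 0.16 and 0.13), nor Unc93b1 without saline or either apoptotic library (adjusted p = 0.077, 0.11 and 0.082), and DESeq2 did not call Cd180 (adjusted p = 0.063), Trim30a (0.075) or Cd86 (0.081). Of 11 costimulation genes 3 were lower, Icosl, Cd83 and Cd86 (-0.72), and Cd86 was not called without the marker-bearing cells (adjusted p = 0.26). The type I interferon list had 3 of 36 genes higher, Cmpk2 (1.06), Trim30a (0.42) and Ifi27l2a (0.37), the interferon-γ list 2 of 20 lower, Cxcl9 and Ciita, and the MHC class I list 1 of 22 higher, the chaperone gene Calr (0.43). Trim30a and Ifi27l2a were not called without any library but the live allogeneic one (adjusted p = 0.18, 0.15, 0.11 and 0.073 for Trim30a and 0.13, 0.11, 0.16 and 0.053 for Ifi27l2a, in library order), Cmpk2 was not called in matched cells (adjusted p = 0.062), and Cd86 was not called without saline or either allogeneic or the live isogeneic library (adjusted p from 0.059 to 0.31).

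In the cell cycle list 2 of 23 genes were higher. Summed over these 23 genes, members held 1.215, 0.542, 1.24, 1.19 and 1.74 times the level of negative cells. In the live allogeneic library 21 of the 23 were lower in members. Without the marker-bearing cells 18 were lower there, at 0.616 times the negative cells. Mki67, a gene of dividing cells, stood at 60.1, 0, 77.4, 44.9 and 95.5 CPM in members against 5.5, 9.8, 34.2, 2.8 and 12.2 (log2 2.11, adjusted p = 0.0032), with no UMI in live allogeneic members, and Cenpf had a log2 difference of 3.02. In cells matched by UMI total Mki67 was not called (1.14, adjusted p = 0.063), and of 14 cell cycle genes none was higher and 1 was lower. Without the marker-bearing cells 8 of 18 were higher and none lower, with Mki67 at 2.97. Without the apoptotic isogeneic library neither was called (adjusted p = 0.086 for Mki67 and 0.089 for Cenpf), nor Cenpf without apoptotic allogeneic (adjusted p = 0.079). DESeq2 called neither (adjusted p = 0.56 for Mki67 and 0.38 for Cenpf). None of 21 heat and dissociation stress genes was called in all cells, and 2 of 20 were lower without the marker-bearing cells.

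Antibody constant region levels changed with the cells kept. Of 8 tested constant regions 3 were higher, Ighg2b (log2 4.47), Iglc1 and Iglc2, and Ighd was lower. Plasma cell markers moved with them, 4 of 8 being higher: Jchain, Slpi (4.15), Derl3 (2.08) and Sdc1 (1.09). None of these 4, nor Ighg2b, was tested without the marker-bearing cells. Sdc1 was not called without live isogeneic or either apoptotic library (adjusted p = 0.085, 0.092 and 0.095), or by DESeq2 (adjusted p = 0.16). Ighm (chr12:113418558-113422730) stood at 21060, 3492, 22280, 25160 and 10500 CPM in members and 6351, 23390, 5092, 17480 and 8691 in negative cells, without a call (log2 0.37, SE 0.42, adjusted p = 0.75). Without the marker-bearing cells it stood at 7394, 3965, 5787, 5617 and 5008 CPM against 4213, 2540, 3778, 4269 and 3611, higher in members of each library (log2 0.51, adjusted p = 1.1e-10). Iglc1, a λ light chain constant region, was higher in both fits (log2 1.07, adjusted p = 0.0028, and 1.22 without those cells), at 2911, 1628, 1668, 1959 and 2050 CPM against 896, 747, 586, 902 and 1017 in the latter. Iglc1 and Iglc2 are near-identical copies, and reads between them may have been split.

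The gap between members and negative cells was not the same size in each library. Summed over the mature follicular list, members held 0.701, 1.15, 0.700, 0.834 and 0.815 times the level of negative cells, with 11, 1, 10, 9 and 10 of 12 genes lower. The live allogeneic library was the exception, and there the ratio was 1.01 without the marker-bearing cells, with 5 genes lower and 7 higher. Summed MHC class II genes stood at 0.640, 1.02, 0.693, 0.688 and 0.863 times the negative cells, and at 0.753, 1.01, 0.798, 0.815 and 0.901 times without the marker-bearing cells. Summed progenitor-stage genes stood higher in members of every library, at 2.76, 2.70, 2.55, 2.15 and 1.80 times, but not gene by gene, with 4, 3, 5, 3 and 4 of 6 tested genes higher. In the live allogeneic library the negative class held plasma RNA as well, with Jchain at 5316 CPM against 5971 in members. Whether the libraries differ in this gap was not tested, since each infusion had 1 library.

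**Figure D3:**
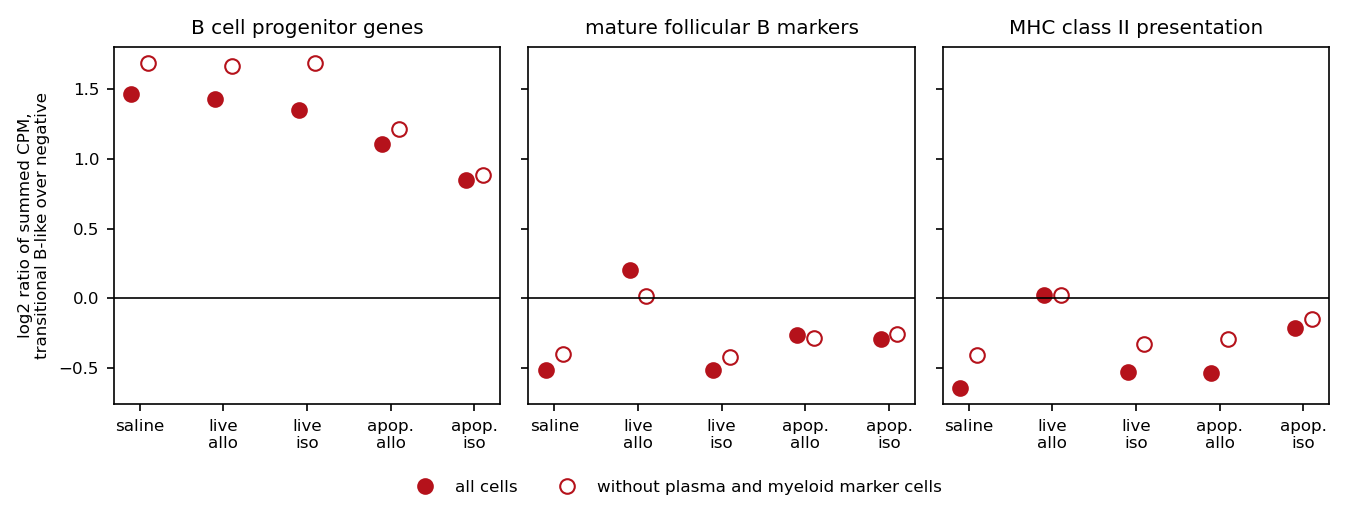
Log2 ratio of summed CPM, transitional B-like over Vpreb3- and Cd93-negative B cells, for 3 gene lists in each of the 5 libraries; filled points use all cells, open points leave out cells with plasma or myeloid markers. Summed progenitor genes lie above 0 in all libraries, and mature follicular and MHC class II genes lie below 0 except in the live allogeneic library.

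Against marginal zone-gated B cells the differences were broader: 853 genes (11.7%) were higher in members and 904 (12.4%) lower, and without the marker-bearing cells 871 (12.9%) and 870 (12.9%). Both fits shared 715 higher and 729 lower genes. Marginal zone-gated cells were deeper, with medians of 3525 to 6912 UMIs, and when cells were matched by UMI total 207 of 3403 tested genes were higher and 261 lower.

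Members held more RNA of follicular genes and less of marginal zone genes. Of the mature follicular list 9 of 12 tested genes were higher in members than in marginal zone-gated cells and 1, the chemokine receptor gene Cxcr5 (log2 -0.40), was lower. Cxcr5 lost its call without saline, live isogeneic or apoptotic isogeneic (adjusted p = 0.052, 0.12 and 0.14) and with DESeq2 (adjusted p = 0.080). Fcer2a stood at 110, 102, 102, 98.5 and 99.5 CPM in marginal zone-gated cells and Ighd at 281, 446, 348, 333 and 340, both under every member value (log2 1.48 and 1.08). Klf2, which keeps lymphocytes in recirculation (2.35), Cd55 (1.66) and Ccr7 (1.12) were higher too. Of 8 tested marginal zone genes outside the rule, 7 were lower and none higher: S1pr3, a sphingosine-1-phosphate receptor gene (-3.90), Asb2 (-3.50), Pik3r4 (-2.56), Tm6sf1 (-2.20), Cd1d1, which presents lipids (-1.81), Plac8 (-1.48) and the scavenger receptor gene Cd36 (-1.44). In matched cells 3 of 5 were lower, and Cd36 lost its call (adjusted p = 0.092).

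The ranking by size put Atp1b1 (log2 4.89), Serinc5 (3.71) and Akap12 (3.60) near the top. Jchain (9.64), Ighg2b (5.59), Slpi (4.62) and Eaf2 (3.08) were plasma cell genes that could not be tested without the marker-bearing cells, as was Prg2, which had no UMI in marginal zone-gated cells. Txndc5 went from 3.05 to 1.69 and Igkc from 3.03 to 0.66 when those cells were left out. In their place Sox4 (2.80), Cpm (2.85), Fry (2.58) and B3gnt8 (2.34) entered the ranking, chosen here after their values were seen. The lowest genes besides S1pr3 were I830077J02Rik (-4.05), the short-chain fatty acid receptor gene Ffar2 (-3.62), Tbc1d4 (-3.61), AW011738 (-3.21), Plbd1 (-3.06), the aryl hydrocarbon receptor gene Ahr (-3.04) and Gm6377 (-2.90). Apol7c (-4.19) and the dendritic cell gene Xcr1 (-3.47) were not testable without the marker-bearing cells.

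Of 31 transcription factor genes 19 were higher and 5 lower against marginal zone-gated cells, led by Klf2, Sox4 and Bach2, a repressor of plasma cell differentiation (log2 2.24). Homing genes split, with 9 of 25 higher, among them S1pr4 (1.98), Cxcr4 (1.71) and Icam2 (1.36), and 7 lower, among them S1pr1 (-0.75). For the label markers, Chst3 (1.54) and Spib (1.20) were higher, while the differences of Ly6d (0.69) and Cd24a (0.66) were not called in matched cells (0.30 for Ly6d, adjusted p = 0.077, and adjusted p = 0.081 for Cd24a). MHC class II counts changed with the cells kept: 1 of 14 genes was higher and 6 lower in all cells, and 3 higher and 1 lower without the marker-bearing cells. In matched cells none of 14 was higher and 7 were lower. Matched cells also had 7 of 27 transcription factor genes higher and 2 lower, and 3 of 19 homing genes higher and 3 lower.

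Members differed among themselves in many of the same genes. CD23 separates early from later transitional cells, and members with at least 1 Fcer2a UMI (68, 44, 115, 68 and 243 cells, 538 in all) were compared with those with none, over 3692 genes. Of these, 158 (4.28%) were higher and 152 (4.12%) lower in Fcer2a-positive members. Without the marker-bearing cells 144 of 3097 (4.65%) were higher and 83 (2.68%) lower, with 120 higher and 53 lower genes shared. A cell with no Fcer2a UMI may still hold the RNA. Fcer2a-positive members were deeper by medians of 2373.5, 3382, 3109, 2901.5 and 1818 UMIs against 2104, 3381, 2779, 2503 and 1604.5, and in cells matched by UMI total 92 of 2427 tested genes were higher and 84 lower.

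Fcer2a-positive members had more RNA of follicular and class II genes. Ighd stood at 1208, 1284, 1130, 1040 and 1032 CPM in positive and 249, 791, 377, 374 and 681 in negative members, with no overlap (log2 1.17, adjusted p = 3.4e-06). H2-Aa stood at 3027, 4099, 3169, 2647 and 3856 CPM against 1545, 2411, 1220, 1506 and 2552, also without overlap (log2 0.79, adjusted p = 9.3e-07). Of 14 MHC class II genes 12 were higher and none lower (median 0.76), with the same counts without the marker-bearing cells. Among them were H2-Eb2 (1.11), Cd83 (0.96), H2-Eb1 (0.84), H2-Oa (0.82), Ciita (0.77) and H2-Ab1 (0.74). Of 11 mature follicular genes 8 were higher and none lower (median 0.79), with Gpr183 (1.21), Icosl (0.95) and Ccr7 (0.81) among them, and Bcl2 was higher by 0.64. Bcl2 was not called without saline or either isogeneic library (adjusted p = 0.086, 0.32 and 0.11) or in matched cells (adjusted p = 0.063). Without live isogeneic, H2-Eb2 (0.70, adjusted p = 0.25), Cd83 (0.65, adjusted p = 0.14) and Ccr7 (0.52, adjusted p = 0.21) were not called either, and Cd83 not in matched cells (adjusted p = 0.076). DESeq2 did not call Bcl2, H2-Eb2, Cd83, Ccr7 or Icosl (adjusted p = 0.37, 0.15, 0.16, 0.17 and 0.051).

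The highest genes by the ranking were Pgap1, a lipid anchor remodelling gene (log2 1.28), Gimap3 (1.26), Gimap7 (1.04) and Gimap4 (1.02), which encode GTPases of lymphocyte survival, Neurl3 (1.22), Gpr183, Bmyc (1.19), Gpr174 (1.13), H2-Eb2 and the signalling adaptor gene Stap1 (0.97). Gimap3 stood at 200, 247, 135, 147 and 239 CPM in positive and 64.7, 135, 40.0, 59.6 and 101 in negative members, higher in each library. In the same ranking Gpr174 was not called in matched cells (adjusted p = 0.057) or by DESeq2 (adjusted p = 0.054).

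Fcer2a-negative members held more progenitor-stage RNA, with 3 of 3 tested progenitor genes lower in the positive ones. Akap12 stood at 79.1, 41.2, 78.0, 54.5 and 47.2 CPM in positive and 158, 110, 146, 131 and 111 in negative members, without overlap (log2 -1.21, adjusted p = 3.1e-05). Cd24a (-0.63), Ly6d (-0.45) and Spib (-0.42) were lower in positive members, and Chst3 was not called (-0.25, adjusted p = 0.32). Spib was not called without saline or either isogeneic library (adjusted p = 0.12, 0.065 and 0.080). DESeq2 did not call it (adjusted p = 0.23). The 10 lowest genes by the ranking, from Jchain (-4.64) and Igkc (-3.15) through Tent5c (-3.12), Eaf2 (-3.11), Derl3 (-2.71), Edem1 (-2.44), Edem2 (-2.18), Xbp1 (-1.99) and Rexo2 (-1.91) to Prdx4 (-1.85), were for the most part genes of antibody secretion. Without the marker-bearing cells Igkc, Xbp1 and Rexo2 were not called (adjusted p = 0.080, 0.33 and 0.082) and the other 7 were not tested.

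Without those cells the lowest genes, named after their values were seen, included Coq7 (log2 -1.75 in all cells and -1.95 without), Serinc5 (-1.48 and -1.49), Atp1b1 (-1.53), Arid3a (-1.34 and -1.11), Iglc1 (-1.19 and -0.93), Pafah1b3 (-1.24), Ighm (-1.81 and -0.46) and Hsp90b1 (-1.35 and -0.46). Coq7, Serinc5, Atp1b1 and Arid3a were each higher in members than in Vpreb3- and Cd93-negative cells. Of 12 cell cycle genes 4 were lower in positive members, with 5 of 8 lower without the marker-bearing cells and 0 of 5 in matched cells.

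**Figure D4:**
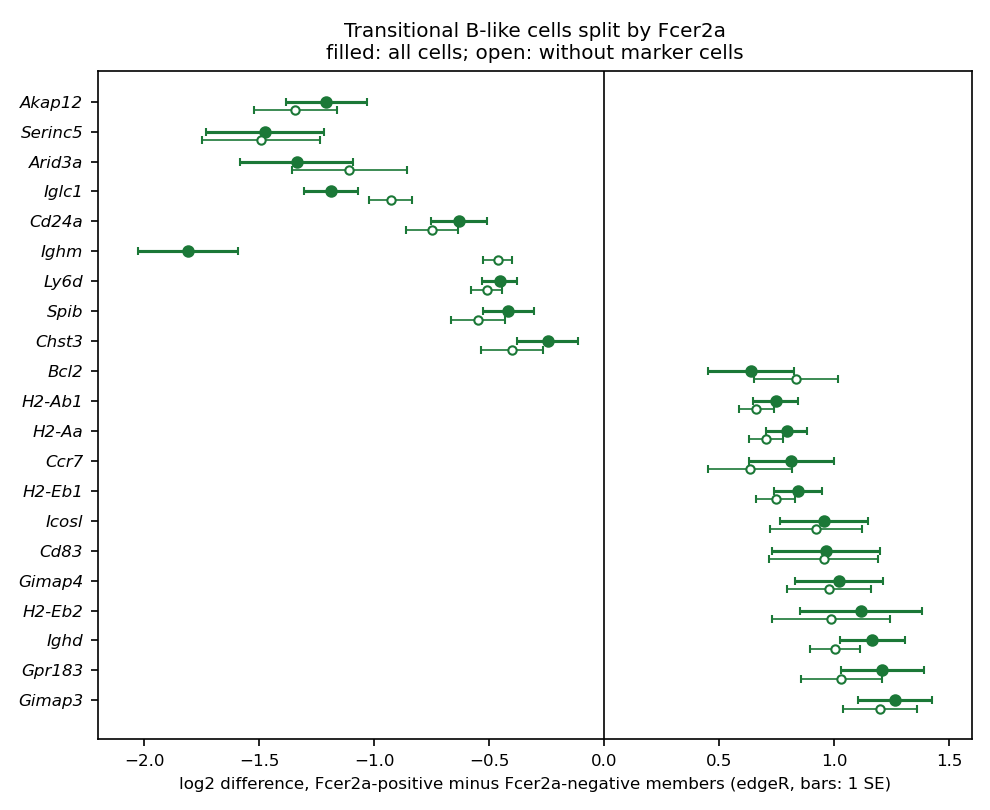
Log2 difference, Fcer2a-positive minus Fcer2a-negative transitional B-like cells, with the standard error as a bar; filled points use all cells and open points leave out cells with plasma or myeloid markers. Ighd (1.17) and H2-Aa (0.79) lie on the positive side and Akap12 (-1.21) and Cd24a (-0.63) on the negative side.

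Transitional B-like cells made up 15.8%, 15.3%, 18.2%, 18.1% and 16.2% of B cells, with exact Clopper-Pearson 95% intervals of 13.7 to 18.1, 12.3 to 18.6, 16.3 to 20.3, 15.4 to 21.1 and 15.01 to 17.5%. All 5 intervals overlapped, and they cover counting error only. The shares depend on the threshold and were less alike with at least 3 UMIs of Vpreb3 and Cd93. Members were then 180 of 1499 B cells in the live isogeneic library and 268 of 3510 in the apoptotic isogeneic one, the library of lowest depth. The members with at least 1 Fcer2a UMI were 39.1%, 54.3%, 42.1%, 49.6% and 42.7%, highest in the live allogeneic library, and 25.3%, 32.1%, 21.2%, 25.5% and 30.6% after each cell was thinned to 1000 UMIs. For Ighd the shares were 56.9%, 93.8%, 67.0%, 70.1% and 70.5%, and 36.2%, 59.3%, 41.8%, 47.4% and 52.4% thinned, with the live allogeneic library highest at both depths. Among T cells 0.607% held a Fcer2a UMI and 2.29% an Ighd UMI, at median depths of 2670 to 5772 UMIs against 1696 to 3381 in members.

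The infusion groups had 1 library each, so the values between them carry no test, and their intervals are exact Poisson intervals for counting error. In live allogeneic members the type I interferon response stood above every other library. The 47 genes summed to 4594, 8786, 3868, 3612 and 4270 CPM in members and 4137, 8316, 3838, 2994 and 3538 in negative B cells. Live allogeneic members stood 1.91 times the saline members (1.81 to 2.02) and 2.27 times the live isogeneic members (2.17 to 2.38), and the negative B cells of the same pair of libraries stood 2.01 times saline. Past 1.5-fold were 31 of 42 list genes higher and 0 lower against saline, where 8.24% of all 7071 genes were higher and 18.2% lower. Against live isogeneic members 33 of 42 were higher, where 7.31% of genes were higher and 18.3% lower. Ifi27l2a, an interferon-induced gene, stood at 904, 1887, 805, 800 and 913 CPM in members. Isg15, a ubiquitin-like modifier gene, stood at 10.0, 135, 19.6, 8.2 and 16.3 CPM, with 45 UMIs in live allogeneic and 5 in saline members (13.5-fold, 5.37 to 43.6). Ly6a stood at 459, 1151, 233, 261 and 368 CPM.

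The largest ratios of live allogeneic over saline members were interferon genes for the most part: Isg15, Ifit1bl1 (9.75, 3.38 to 38.4), Mitd1 (6.75, 2.73 to 19.98), Ifit3 (5.75, 2.996 to 11.9) and Ifi213 (5.35, 2.91 to 10.5). The lowest were Med29 (0.103), Atg101 (0.107), the histone methyltransferase gene Ezh2 (0.145), Lpin2 (0.150) and Cbfa2t3 (0.263). Against live isogeneic members the highest were Ifit3 (24.7, 10.5 to 70.8), Gm11808 (10.1), Serpina3g (8.16), Isg15 (6.90) and Ly6a (4.93), and the lowest the histone genes Hist1h2ap (0.106) and Hist1h1b (0.121), Spcs3 (0.122), Zfp36l2 (0.183) and Fos (0.191). The interferon-γ list stood at 1.86 times saline (1.67 to 2.07; 16 of 21 genes past 1.5-fold), with Irf1 at 2.92, Ifi47 at 2.32, Psmb9 at 2.19 and Tap1 at 1.59. MHC class I genes stood at 1.45 times saline (1.38 to 1.53), B2m at 2.01 and H2-Q7 at 1.66. Negative B cells were higher in live allogeneic than in saline too. Their MHC class I genes summed to 8264 against 5404 CPM, with members at 8456 against 5812. Their interferon-γ list summed to 2450 against 1745 CPM, with members at 2386 against 1283. Without the marker-bearing cells that list stood at 2724 against 1327 CPM in negative B cells and 2496 against 1303 in members.

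**Figure D5:**
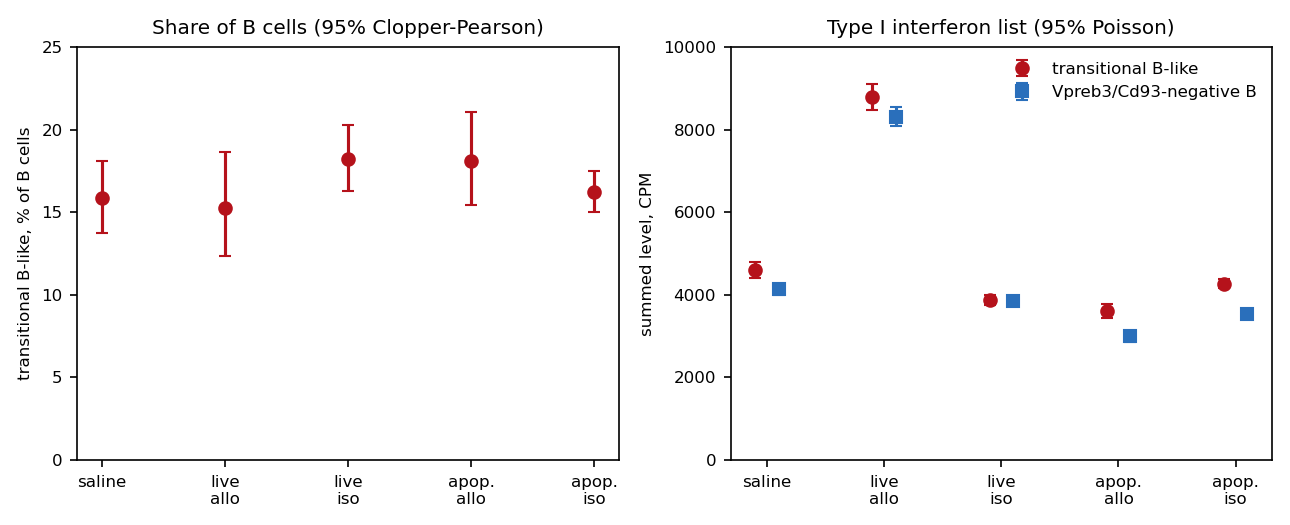
Share of B cells that were transitional B-like in each library, in percent with exact Clopper-Pearson 95% intervals, and summed CPM of the type I interferon list in transitional B-like cells and in Vpreb3- and Cd93-negative B cells, with Poisson intervals. The shares overlap at 15.3 to 18.2%, and the live allogeneic library is highest in the interferon list in both classes (8786 and 8316 CPM).

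Live allogeneic members also stood above saline members in MHC class II genes and under them in progenitor-stage genes, again without a test. MHC class II genes summed to 1.31 times saline (1.27 to 1.36) in members, and to 0.826 times in negative B cells of the same libraries, or 1.30 and 0.966 without the marker-bearing cells. H2-Eb1 stood at 1.80 times saline, H2-DMb1 at 1.73, H2-Aa at 1.55 and H2-Ab1 at 1.54. The mature follicular list stood at 1.16 times saline in members (1.08 to 1.24) and 0.706 times in negative cells, but at 1.03 in members without the marker-bearing cells. Within it Ighd stood at 1.70 times saline (1.45 to 1.99) and at 1.47 without those cells.

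Progenitor-stage genes stood lower, at 0.459 times saline (0.379 to 0.553; 4 of 4 genes), and in negative B cells by much the same ratio (0.472). Among members Cd24a stood at 0.477 times saline, Akap12 at 0.586 and Sox4 at 0.262. Outside the progenitor list Spib (0.554), the BAFF receptor gene Tnfrsf13c (0.657), Ets1 (0.655), Bach2 (0.617) and Ikzf3 (0.550) were also under saline. Over all 7071 genes 18.2% were lower past 1.5-fold in members. Live allogeneic negative B cells were under saline ones too for Cd24a (123 against 242 CPM), Akap12 (13.1 against 33.1) and Spib (86.6 against 173). Tnfrsf13c and Sox4 were also lower there. Cell cycle genes stood at 0.612 times saline and 0.425 times live isogeneic members, with 20 of 25 genes lower past 1.5-fold against the latter. Without the marker-bearing cells the ratios were 0.701 and 0.392. Negative B cells stood at 1.40 times saline (1.29 to 1.53) and 1.00 times live isogeneic, and the difference between the classes was not tested. Without the marker-bearing cells, live allogeneic negative B cells stood at 1513 CPM against 1171 in saline and 1293 in live isogeneic ones. No live allogeneic member held a Mki67 or Top2a UMI, against 6, 23, 5 and 16 members elsewhere. Counting error on 0 of 81 allows a share of up to 3.70% of cells with such a UMI and sets no limit on cells that express the genes. Among negative B cells 5, 6, 30, 5 and 35 held one, which were 1.37%, 4.38%, 6.51%, 2.39% and 2.69% of that class. The shares of members were 3.45%, 0%, 8.42%, 3.65% and 2.81%.

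In live isogeneic members 8.72% of genes were higher and 7.55% lower past 1.5-fold, in apoptotic allogeneic members 5.81% and 11.8%, and in apoptotic isogeneic members 5.96% and 6.52%. Their type I interferon lists stood at 0.842, 0.786 and 0.930 times saline. The apoptotic allogeneic members stood at 0.846 times the apoptotic isogeneic members in that list, where 4.02% of genes were higher and 8.29% lower.

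Live isogeneic members had more cell cycle RNA, at 1.44 times saline with 12 of 27 genes past 1.5-fold (1.79 times without the marker-bearing cells), and apoptotic isogeneic members likewise at 1.46 times with 12 of 28. Negative B cells stood at 1.40 and 1.01 times saline in the same libraries. Without the marker-bearing cells the list summed to 1171, 1293 and 1231 CPM in negative B cells of the saline, live isogeneic and apoptotic isogeneic libraries. Members then stood at 1290, 2308 and 1957 CPM. The highest single genes in live isogeneic members were Hist1h2ap (9.01, 4.94 to 18.3), the early response gene Fos (6.47, 4.24 to 10.4), Cks2 (5.86), Gm42418 (3.83) and Lars2 (3.54). The latter pair stood as far above saline in negative B cells, at 3.88 and 4.01. The heat and dissociation stress list stood at 1.34 times saline and the early response list at 1.26 times. The lowest were Apoe (0.245), Mid1 (0.288), Gm11808 (0.293) and Il4i1 (0.382), and Apoe stood at 2.10 times saline without the marker-bearing cells.

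In apoptotic allogeneic members the highest genes over saline were Zc3h12d (5.09), Mitd1 (4.24), Irs2 (3.56), Ndufa1 (3.15) and Txndc5 (2.96), the last at 0.699 without the marker-bearing cells, and the lowest included Pip4k2b (0.145) and Trim30b (0.218). In apoptotic isogeneic members they were Hcst (3.71), Fmc1 (3.19), Wdr89 (3.12), Ndufb3 (2.81) and Gm2000 (2.65), and the lowest included Adsl (0.224), Mid1 (0.314) and Apoe (0.343, or 2.62 without the marker-bearing cells). Between the apoptotic infusions, plasma cell markers stood at 3.73 times in allogeneic over isogeneic members and at 1.03 times without the marker-bearing cells. The highest genes of that pair moved with them: Txndc5 (2.95), Fam214a (2.87) and Ckap4 (2.86) went to 0.835, 0.819 and 1.29, while D16Ertd472e stood at 4.04 and Xbp1 at 2.72. The lowest included Amn1 (0.292) and the chemokine receptor gene Ccr6 (0.300).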

How the data were processed

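The authors deposited 1 matrix of UMI counts per library. Per the submitters' processing notes, the tool was Cell Ranger 4.0 and the build mm10. Libraries were 10x 3′ v3.1, per the labels' protocols. The apoptotic allogeneic file held 2491 barcodes and the others 6794880 each, so the cell minimums did the cell calling. CPM is a gene's UMIs in a class and library, scaled to a total of 1000000. Members and gene lists were chosen with earlier results of these data known.

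Raw UMI sums per class and library were tested with edgeR 4.0.16 (R 4.3.3; quasi-likelihood, TMM, library as block, filterByExpr, Benjamini-Hochberg over all genes tested), with DESeq2 1.42.0 as an alternative. The fit held 15 sums, and the Fcer2a fit 10. Rule genes were left out. The edgeR fit of members against negative B cells was tested on simulated data, and the Fcer2a fit and DESeq2 were not. The simulation gave all genes a common spread and every library the same gene profile. It therefore does not show how calls behave where genes or libraries differ in these respects. Cells with over 2 Jchain UMIs, or over 2 UMIs of Lyz2, Csf1r, Cd209a, Xcr1, Clec9a, Itgax, C1qa, Vcam1, Ly6c2, S100a8 and S100a9 together, are the marker-bearing cells. Matched cells were paired within 10% of UMI total.

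Named genes were the 15 highest and 15 lowest log2 differences (10 in the other class comparisons) past an adjusted p of 0.05, in 1 direction in all 5 libraries, with at least 50 CPM. Between libraries they were the 5 highest and 5 lowest ratios (pseudocount 10 CPM, at least 30 UMIs and a UMI in 10% of members of a library), and in lists the called genes or, without a test, the 4 with most UMIs past 1.5-fold. A gene entered a count between libraries with at least 10 UMIs in the 2 sums. Gene positions are those of mm10 (GRCm38). Python 3.11.15, numpy 2.4.6, scipy 1.17.1 and pandas 2.3.3 were used. Values of a few genes that the rules name are not reported here.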

Additional observations from a re-analysis of the deposited data

Results flagged for a closer look

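Of 23 differences examined over the 5 libraries, 2 values stood apart by Dixon's criterion, which chance meets in about 1 of 20 groups. The log2 ratio of Cd24a between transitional B-like cells and Vpreb3- and Cd93-negative B cells was 0.84 in the apoptotic isogeneic library and 1.315 to 1.49 in the others. Without the cells with plasma or myeloid markers it was 0.85 against 1.27 to 1.65. The summed B cell receptor signalling list had a log2 ratio of 0.44 in the live allogeneic library and -0.01 to 0.12 in the others, and 0.36 against 0.10 to 0.27 without those cells. The gap to the nearest library was 0.728 of the range for Cd24a and 0.716 for the receptor list, and 0.528 and 0.36 without those cells, so that neither then stood apart.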

How the results depend on the processing

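Against Vpreb3- and Cd93-negative B cells, the 208 higher genes became 135 with DESeq2 and 331 with no filter (a fit that gave every gene the trended spread in place of its own), and ranged from 122 to 270 when 1 library was left out (131 without saline, 122 without live isogeneic). The 299 lower genes ranged from 174 (without saline) to 337, with 192 without live isogeneic. With no replicate block 65 were higher and 44 lower. Against marginal zone-gated cells the fit without the block gave 583 lower genes, and cells matched by UMI total 207 higher and 261 lower, while leaving out libraries gave 631 to 845 and 695 to 894. In the Fcer2a comparison, 158 higher and 152 lower genes became 92 and 84 in matched cells, 63 and 61 with DESeq2 and 34 and 61 with no replicate block. They ranged from 68 to 150 and from 78 to 159 over libraries left out (68 and 78 without live isogeneic, 98 higher without apoptotic isogeneic), and 83 were lower without the marker-bearing cells. Infusions could not be compared in pairs, because each had 1 library. The class comparisons were paired within libraries, with the library as the block.

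Ighm against negative B cells, not called at a log2 difference of 0.37, ranged from -0.0615 without live isogeneic to 1.09 without live allogeneic (adjusted p = 0.0062), and passed the threshold at 0.34 with no filter (adjusted p = 1.46e-10). Thinned to 1000 UMIs, the shares of B cells were 24.2%, 20.2%, 23.1%, 22.8% and 25.8%. There 1 UMI of the pair and 1 over Cd79a, Cd79b and Ms4a1 were enough, while the marginal zone limit stayed at 1 UMI. With at least 3 UMIs of Vpreb3 and Cd93 the shares were 9.74%, 9.06%, 12.0%, 11.6% and 7.64%, and the last was 12.6% with a UMI minimum of 2000. The type I interferon ratio of live allogeneic over saline members, 1.91, was 2.07 with TMM scaling, 1.76 thinned, 1.76 with at least 3 UMIs, 1.80 with cells weighted equally, 1.80 without the marker-bearing cells and 1.79 in Fcer2a-positive members. Antibody constant regions of apoptotic isogeneic over saline went to 1.12 in Fcer2a-positive members, those of live allogeneic over live isogeneic to 1.4997 with at least 3 UMIs, and cell cycle genes of apoptotic allogeneic over apoptotic isogeneic to 1.29 in Fcer2a-positive members, all on the other side of 1. The cause was not tested. Of the genes named against negative B cells, 22 lost their call without saline, 1 without live allogeneic, 19 without live isogeneic, 22 without apoptotic allogeneic and 13 without apoptotic isogeneic, and 20 with DESeq2. With no replicate block 56 of 94 lost it. The live allogeneic library, with 81 members, limits the depth of every value that uses it.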
